A study of Mus musculus with 15 samples.

Results

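Day 4 cells of a chemical conversion of mouse astrocytes toward neurons were compared with primary neurons. The comparison covered the 13170 of 24346 gene symbols that reached 1 FPKM (sequenced fragments of a gene scaled to transcript length and library size) in at least 3 of the 6 libraries concerned. All cells came from brain of the C57BL/6 mouse strain. The 3 libraries called D4 are labelled as neurons induced chemically, at day 4, and the 3 called PN as primary neurons. The labels name no compound or dose, give no animal age, and name neither the brain region nor the days in culture of PN. They do not say whether the libraries of a group came from separate cultures or animals, so the tests rest on a spread between libraries that may be only technical. The series also holds 3 libraries each of astrocytes (D0) and of induced cells at days 8 and 16 (D8, D16). They entered the fit that estimated the spread.

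Direct conversion turns one differentiated cell type into another without a return to pluripotency. Small molecules used for it usually act on signalling pathways or chromatin, and the cells must both silence the programme of their origin and open a neuronal one. Neurons in culture are marked by stable microtubules and growth cones, by vesicle release machinery and receptors, and by transcription factors that record the brain region they came from. Astrocytes are marked by the filament protein GFAP, by glutamate uptake and by lipid handling. They divide in culture and can switch on a reactive programme of secreted and scaffold proteins.

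Libraries of 1 group were alike, with Pearson correlations of log2(FPKM + 1) of 0.975 to 0.985 within D4 and 0.964 to 0.978 within PN, against 0.696 to 0.762 between the groups. FPKM totals were 611364 to 720956 in D4 and 548309 to 619212 in PN, and 12726 to 12907 genes in D4 and 11861 to 12222 in PN reached 1 FPKM. Relative depth, taken from the steps between low FPKM values and set to 1 for D4 replicate 1, was 0.994 to 2.28 in D4 and 2.38 to 2.85 in PN. The absolute depth is unknown. PN replicate 3 stood apart in contractile and other non-neuronal genes. Smooth muscle actin Acta2 was at 0.165, 0.13 and 31.2 FPKM in PN replicates 1, 2 and 3, and the results this touches are given with and without that library.

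The labelled cell types were set against marker lists. The 34 genes of the neuronal cytoskeleton and growth cone list summed to 26142 to 27467 FPKM in PN and to 3119 to 4058 FPKM in D4. The 33 astrocyte genes summed to 2776 to 4041 FPKM in D4 and 1538 to 3280 FPKM in PN, so these sums overlapped. The overlap rested on Fabp7, a gene of radial glia and young astrocytes. It held 625, 1428 and 1696 FPKM of the PN sums and 16.9, 28.5 and 44.7 FPKM of the D4 sums. Other astrocyte genes, such as Slc1a3 (58.6, 110 and 72.7 FPKM), were also present in PN. Of 15 microglia genes, Tyrobp, P2ry12 and Fcer1g were listed at 0 in all D4 libraries. The microglia sums were 108 to 133 FPKM in D4 and 13.4 to 27.1 FPKM in PN. The oligodendrocyte (48.02 to 73.6 FPKM in D4, 18.1 to 29.6 in PN), vascular (13.3 to 17.2 and 4.85 to 14.7) and ependymal lists (10.05 to 16.3 and 21.7 to 27.5) were low in both groups. Whether astrocytes within PN, or unconverted cells within D4, account for any difference was not tested. In bulk RNA, fewer cells of a type and less RNA per cell cannot be told apart.

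At day 4 the cells lacked much of the structural and regional programme of PN and held high levels of lysosomal genes and of some peptide and metallothionein genes. To be called, a gene needed an adjusted p under 0.05 (limma, Benjamini-Hochberg over all 13170 genes) and a difference of at least 1 on the log2(FPKM + 1) scale, which understates differences of low genes. By this rule 3013 genes (22.9%) were higher in D4 and 2218 (16.8%) lower, together 39.7%. The 95% interval of the difference lay within 1 of 0 in 5188 genes (39.4%), and 2751 were neither called nor held within that range. All 3 D4 values lay above all 3 PN values in 37.9% of genes and below them in 32% of genes, and 2976 of the higher and 2204 of the lower calls did not overlap. Of the higher calls 797, and of the lower calls 367, reached 1 FPKM in 1 group only. Higher calls made up 57.6% of all calls, but 51.0% after scaling to an equal total and 52.2% after quantile normalization. Those scalings moved the median difference of all genes, 0.08, by -0.15 and -0.08.

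**Figure D1:**
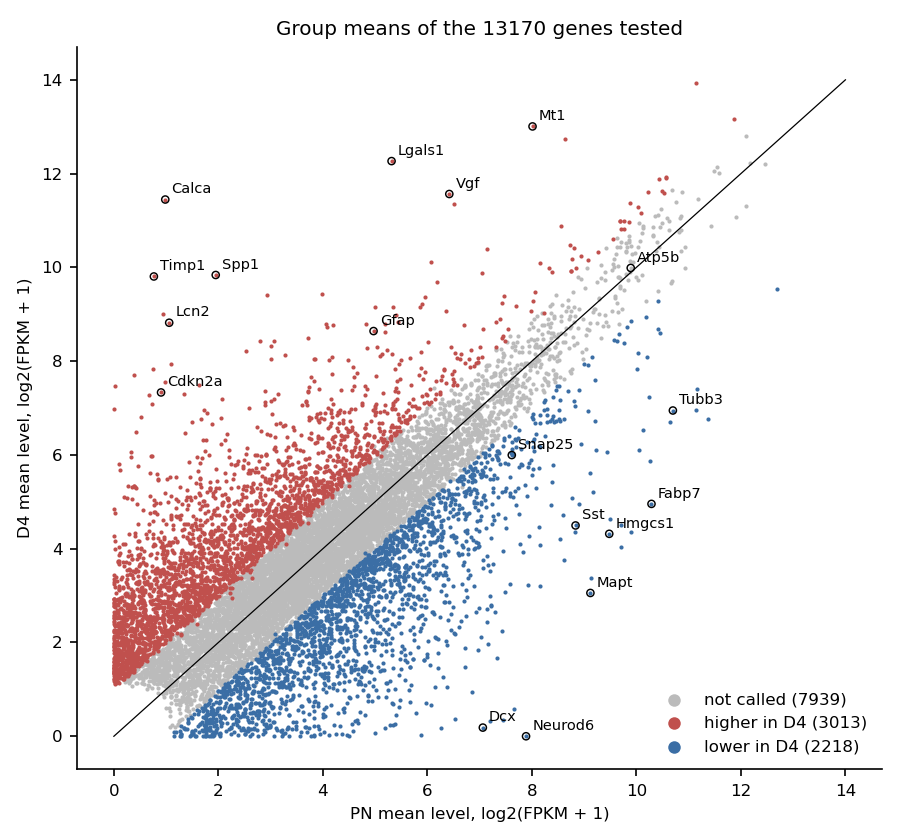
Mean level of each of the 13170 genes in PN (horizontal) and D4 (vertical), both as log2(FPKM + 1), with 3 libraries per group. Red points are the 3013 genes called higher in D4, blue points the 2218 called lower and grey points the rest; the line marks equal levels. Calca and Timp1 lie at the upper left, Neurod6 and Dcx at the bottom right, and the ATP synthase gene Atp5b on the line.

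The genes furthest below PN included several markers of young cortical projection neurons. Neurod6, a helix-loop-helix factor of such neurons (chromosome 6, 55677818 to 55681263, GRCm38), was listed at 0 in every D4 library and at 270, 247 and 191 FPKM in PN (log2 difference -7.87 ± 0.15 SE, adjusted p = 1.9e-14, limma). Dcx, the microtubule protein of migrating young neurons (chromosome X, 143855842 to 143933396), was at 0.112, 0.129 and 0.169 FPKM in D4 and 115, 153 and 130 FPKM in PN (-6.87 ± 0.15, adjusted p = 9.2e-14, limma). No D4 library came near any PN library for either gene. Both passed the filter through PN alone, so the direction of their calls was set by the filter. The others of the 12 furthest below were the dopamine-receptor-interacting protein gene Caly (-7.08), the repressor Bhlhe22 (-7.07), Islr2 (-6.81), the tau gene Mapt (-6.10), Neurod2 (-6.06), the guidance ligand Efnb3 (-5.90), Sla (-5.81), Ly6h (-5.77), Nrep (-5.65) and Mpped1 (-5.58). Caly, Bhlhe22, Islr2, Neurod2 and Sla also stayed below 1 FPKM in every D4 library and passed the filter through PN alone.

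The genes furthest above PN encoded mostly secreted or glycan-binding proteins. Calca, which encodes calcitonin and the peptide CGRP (chromosome 7, 114625981 to 114636910), was at 2420, 970 and 4983 FPKM in D4 and 0.132, 0.675 and 2.13 FPKM in PN (10.29 ± 0.65, adjusted p = 4.1e-09, limma). D4 libraries varied several-fold among themselves, yet the lowest was far above the highest PN value. Its paralog Calcb stood at 125, 54.3 and 350 FPKM against 0, 0.0626 and 0 FPKM (7.05 ± 0.53), and reads may be shared between the pair. Lgals1, the galectin-1 gene, was at 3669, 4592 and 6518 FPKM in D4 and 24.3, 27.6 and 64.4 FPKM in PN (7.05 ± 0.40). Others of this group were the metalloprotease inhibitor Timp1 (8.97), osteopontin Spp1 (8.13), lipocalin Lcn2 (7.78), the cytokine Il11 (6.98), the crystallin Cryba2 (6.93), the nuclear long RNA Neat1 (6.87), the Wnt deacylase Notum (6.81) and the histone copy Hist1h4m (6.66). Cryba2 was listed at 0 in all PN libraries, and Calcb and Il11 stayed below 1 FPKM there. The direction of the calls of Cryba2, Calcb and Il11 was therefore set by the filter. Hist1h4m is a near copy of other genes, so its value is uncertain.

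Genes were then grouped into 33 lists by role. Of their 1027 symbols, 868 passed the filter on low values, and each list's counts stand against the 22.9% higher and 16.8% lower of all genes and the median difference of 0.08.

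Microtubule and growth cone genes were the group furthest below PN by median. Of 34 members tested, 28 were lower in D4, 1 was higher and 5 were not called, with a median difference of -2.91. Mapt (chromosome 11, 104229409 to 104332090), which stabilizes axonal microtubules, was at 10.4, 6.07 and 5.49 FPKM in D4 and 623, 506 and 537 FPKM in PN, a ratio of group means of 75.9. Stmn1, which promotes microtubule disassembly, was at 75.8, 154 and 91.0 FPKM against 2635, 2647 and 2680 FPKM (-4.69 ± 0.27). The collapsin-response genes Dpysl3 (-5.20) and Dpysl5 (-4.94) and the growth cone gene Gap43 (-4.36) were lower to a like degree.

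Tubb3, the neuron-specific beta tubulin, was not absent in D4. It was at 92.2, 138 and 137 FPKM there and 1701, 1647 and 1633 FPKM in PN (-3.77 ± 0.39). Tuba1a (-3.20) and the dendritic Map2 (-3.01) were lower by a like step. The neurofilament genes departed from this order. Nefl was at 82.0, 82.6 and 106 FPKM in D4 and 150, 112.4 and 52.97 FPKM in PN (-0.10, 95% interval -1.17 to 0.97), with overlapping groups, and Nefm was not called either (0.22 ± 0.33). The heavy chain gene Nefh was higher in D4 (6.09, 6.63 and 6.28 FPKM against 2.70, 3.67 and 1.22 FPKM; 1.12 ± 0.23). It lost its call after quantile normalization (0.91) and without PN replicate 3 (0.82), which leaves none of the list higher.

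Genes of the presynaptic release machinery were lower in 34 of 39 members tested, none was higher (1 at an unadjusted p under 0.05, limma), and the median was -1.93. Without D4 replicate 3 the higher count was 1, and without PN replicate 1 it was 2. The core fusion gene Snap25 (chromosome 2, 136713439 to 136782428) was at 75.2, 52.3 and 61.1 FPKM in D4 and 184, 283 and 118 FPKM in PN (-1.54 ± 0.27, adjusted p = 1.2e-04, limma). The groups did not overlap, but the PN mean was only 3.10 times the D4 mean. The vesicle genes Syp (-1.67) and Vamp2 (-1.62) had similar differences. The calcium sensor Syt1 stood at 15.9, 7.43 and 11.4 FPKM against 101, 148 and 56.5 FPKM (-2.98 ± 0.39). The complexin Cplx2 (-4.41), Syt5 (-4.40), the vesicle protein Sv2b (-4.11) and Napb (-3.97) were further below PN.

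Receptors and postsynaptic scaffolds were lower in 38 of 45 tested members with a median of -2.22. Of these 45 members, 14 reached 1 FPKM in PN only, so the lower count was partly set by the filter. The AMPA receptor gene Gria1 was at 0.737, 0.507 and 0.672 FPKM in D4 and 52.3, 89.2 and 44.8 FPKM in PN (-5.21 ± 0.32, adjusted p = 3.0e-09, limma). The scaffold Dlg2 (-5.38), the GABA receptor subunit Gabra5 (-5.29) and the kinase Camk2a (-5.11) were near or below 1 FPKM in every D4 library too. The obligate NMDA receptor subunit gene Grin1 was at 12.3, 8.73 and 9.08 FPKM against 79.3, 59.6 and 45.5 FPKM (-2.48 ± 0.24), and the scaffold Dlg4 (PSD-95) differed by -1.36.

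Within the receptor families the subunits differed. Gria2 was lower (-3.03 ± 0.37), whereas Gria3 was at 7.78, 6.92 and 6.19 FPKM in D4 and 7.13, 12.95 and 6.98 FPKM in PN and was not called (-0.28 ± 0.25). Gabra3 overlapped between the groups as well, at 11.1, 6.63 and 8.32 FPKM against 10.9, 13.6 and 4.48 FPKM (-0.05 ± 0.34). Arc was the postsynaptic gene called higher in D4, at 5.89, 8.75 and 7.89 FPKM against 2.52, 0.764 and 1.32 FPKM (1.79 ± 0.29).

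Of 43 voltage-gated channel and pump genes, 23 were lower and 1 higher, with a median of -1.06. Of the 43, 9 reached 1 FPKM in PN only, so the lower count was partly set by the filter. The sodium channel gene Scn2a1 was at 0.465, 0.418 and 0.436 FPKM in D4 and 24.4, 36.2 and 14.5 FPKM in PN (-4.09 ± 0.24). The potassium channel Kcnd2 (-3.48), the sodium channel Scn3a (-3.13) and the AMPA receptor partner Cacng2 (-3.08) also stood well below PN. The N-type calcium channel gene Cacna1b was not called, at 11.9, 8.93 and 8.86 FPKM against 16.8, 18.6 and 9.40 FPKM (-0.51 ± 0.26). Without D4 replicate 3, PN replicate 1 or PN replicate 2, 2 members were called higher.

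**Figure D2:**
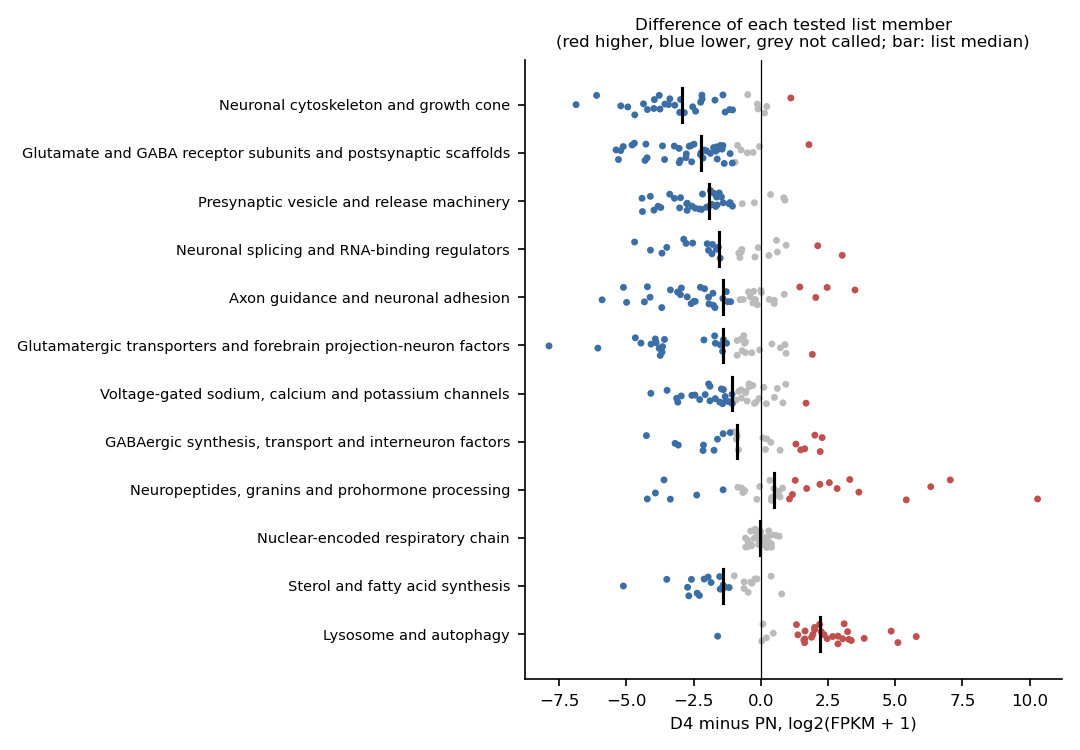
Difference of every tested member of 12 lists, D4 minus PN on the log2(FPKM + 1) scale, 1 point per gene. Red points are called higher, blue points called lower and grey points not called; the black bar is the list median, which runs from -2.91 for the cytoskeleton list to 2.19 for the lysosome list, with the respiratory chain list at -0.01.

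Forebrain projection-neuron factors and glutamate transporters were lower in 19 of 34 members, with a median of -1.40. Of the 34, 6 reached 1 FPKM in PN only, so the lower count was partly set by the filter. The deep-layer factor Tbr1 was at 0, 0.0863 and 0.0330 FPKM in D4 and 16.4, 14.2 and 12.8 FPKM in PN (-3.89 ± 0.14). The cortical factors Emx1 (-4.08), Fezf2 (-3.65) and Bcl11b (-2.11) were lower as well. The activity-dependent factor Mef2c was at 3.83, 3.16 and 2.93 FPKM in D4 and 181, 163 and 42.1 FPKM in PN, so PN replicate 3 was low (-4.66 ± 0.38, and -5.33 without it).

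The 2 main vesicular glutamate transporters did not stand alike. Slc17a6 was at 0.181, 0.276 and 0.0604 FPKM in D4 and 18.4, 22.9 and 10.99 FPKM in PN (-3.92 ± 0.25). Slc17a7 was at 18.5, 12.9 and 11.5 FPKM against 38.4, 69.1 and 16.3 FPKM, so D4 replicate 1 lay above PN replicate 3. Its call (-1.27 ± 0.36) was lost without PN replicate 2 (-0.80). The retinoid-related receptor gene Rorb was the member called higher (1.92 ± 0.31), and without PN replicate 3 there were 4.

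GABAergic and interneuron genes were lower in 9 of 25 tested (36%, against 16.8% of all genes), with a median of -0.87. Another 6 were higher (24%), a share near the 22.9% of all genes. The GABA-synthesis gene Gad1 was at 34.4, 6.57 and 14.2 FPKM in D4 and 50.5, 75.5 and 37.2 FPKM in PN (-1.74 ± 0.46). Gad2 (5.66, 2.69 and 6.01 FPKM against 11.1, 16.5 and 5.24 FPKM; -0.98 ± 0.36) missed the minimum difference but passed it under all 3 scalings and without D4 replicate 1 (-1.11), D4 replicate 3 (-1.15) or PN replicate 3 (-1.38). The vesicular GABA transporter Slc32a1 was not called (-0.87 ± 0.42), though it too was past the minimum without PN replicate 3 (-1.21) or without D4 replicate 1 (-1.29).

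Calretinin Calb2 (-4.25), the medial ganglionic eminence factor Lhx6 (-2.15) and the antisense RNA Dlx6os1 (-3.19) were lower. Dlx1 was not called (0.18 ± 0.35) and Dlx2 was higher (18.4, 11.7 and 21.7 FPKM against 6.46, 4.82 and 7.51 FPKM; 1.31 ± 0.29). The calcium-binding genes Calb1 (2.01 ± 0.40) and Pvalb (2.21 ± 0.32) and the hindbrain and spinal factors Gbx2 (2.28) and Pax2 (1.64) were higher. Pvalb, Gbx2 and Pax2 stayed below 7 FPKM and reached 1 FPKM in D4 only, so the direction of their calls was set by the filter. These 3 calls were lost under a pseudocount of 5 FPKM (0.91, 0.87 and 0.55). Another 3 tested members of the list reached 1 FPKM in PN only. Calb1 stood at 1.31 without PN replicate 3.

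Proneural and differentiation factors were called in equal number each way, 7 lower and 7 higher of 19 tested, with a median of -0.22. Another 10 of the 29 members were not tested. Of the tested members 4 reached 1 FPKM in D4 only and 3 in PN only, so these counts were partly set by the filter. Myt1l, a repressor of non-neuronal genes, was at 0.304, 0.172 and 0.0538 FPKM in D4 and 42.6, 45.7 and 25.3 FPKM in PN (-5.01 ± 0.21). Rest, the repressor of neuronal genes, was the reverse, at 11.4, 9.61 and 9.09 FPKM against 1.35, 1.09 and 2.30 FPKM (2.12 ± 0.28). Neurod1 was lower (-2.82 ± 0.21), while Sox4 (0.08 ± 0.31), Scrt1 (-0.22 ± 0.24) and Sox11 (-0.67 ± 0.22) were not called.

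Splicing and RNA-binding regulators followed a related order, with 14 of 26 lower, 2 higher and a median of -1.54. Ptbp1, a splicing repressor of non-neuronal cells, was at 67.9, 84.5 and 85.0 FPKM in D4 and 14.1, 11.2 and 32.7 FPKM in PN (2.12 ± 0.26). Its neuronal relative Ptbp2 was at 6.73, 5.10 and 3.87 FPKM against 61.1, 74.4 and 69.1 FPKM (-3.49 ± 0.28). Rbfox3, which encodes the antigen NeuN, was at 2.27, 1.77 and 1.32 FPKM in D4 and 54.0, 70.3 and 26.1 FPKM in PN (-4.10 ± 0.26). Rbfox1 (-4.69) and Elavl4 (-3.67) were also lower, and the second member higher in D4 was the oncofetal mRNA-binding gene Igf2bp2 (3.03 ± 0.37).

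Axon guidance and adhesion genes were lower in 26 of 45 members and higher in 4, with a median of -1.41. The adhesion gene Chl1 was at 1.65, 3.89 and 2.26 FPKM in D4 and 123, 171 and 79.8 FPKM in PN (-5.10 ± 0.41), and Opcml (-4.99) and Cntn1 (-4.32) were of like size. The 4 higher members were the netrin receptor Unc5b (33.8, 22.3 and 33.2 FPKM against 1.90, 1.58 and 1.53 FPKM; 3.51 ± 0.28), netrin Ntn1 (2.47), the adhesion gene Nrcam (2.05) and the ephrin receptor Ephb1 (1.45). The other netrin receptor gene Dcc was lower (-1.94 ± 0.27), and the Slit receptor gene Robo1 overlapped between the groups (-0.26 ± 0.37).

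Neuropeptide and secretory granule genes did not follow the synaptic lists: 13 of 34 tested were higher in D4, 6 were lower and the median was 0.51. The regulatory DNA of several of these genes carries the cAMP response element, the palindrome to which CREB-family factors bind. It is shown because the genes that share it did not all stand alike against PN. The letters TGACGTCA (their own reverse complement, so both strands are covered) were sought in RefSeq windows of the mouse build GRCm38.p6 from 250 bases before to 50 after each gene's start. They lay in 6 of the 29 neuropeptide-list genes with a window (20.7%), against 3.67% of the 10482 tested genes with one and 2.03% of all 27025 genes with one. Among the immediate-early and cAMP-responsive genes described further on, 1 of 29 with a window held it (3.45%). By result the share was 2.48% of genes higher in D4, 3.15% of genes lower and 4.34% of genes whose interval lay within 1 of 0. For Ucn and Cartpt the bases just after the start were not found near the beginning of any transcript of the gene, so these starts are less certain. The 6 stretches of 60 bases, 5′ to 3′ on the gene's strand with the element in capitals, are the following.
Sst, chr16:23890859-23890918, minus strand: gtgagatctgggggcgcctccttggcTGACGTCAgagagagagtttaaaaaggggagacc
Ucn, chr5:31138906-31138965, minus strand: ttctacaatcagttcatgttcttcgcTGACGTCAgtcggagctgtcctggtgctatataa
Cartpt, chr13:99900762-99900821, minus strand: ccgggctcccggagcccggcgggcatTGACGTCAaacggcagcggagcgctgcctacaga
Pcsk1, chr13:75089753-75089812, plus strand: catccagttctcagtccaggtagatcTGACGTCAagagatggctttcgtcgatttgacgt
Scg2, chr1:79440061-79440120, minus strand: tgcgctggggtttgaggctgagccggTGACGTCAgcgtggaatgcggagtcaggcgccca
Chgb, chr2:132781544-132781603, plus strand: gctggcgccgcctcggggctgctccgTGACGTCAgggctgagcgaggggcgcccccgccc

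Of these 6 genes, 1 was lower, 1 was higher and 4 were not called. Somatostatin Sst was at 16.4, 30.4 and 17.9 FPKM in D4 and 982, 154 and 231 FPKM in PN (-3.92 ± 0.56, adjusted p = 1.7e-05, limma), with PN replicate 1 far above the other PN libraries. Urocortin Ucn was at 1.24, 3.81 and 2.25 FPKM in D4 and listed at 0 in all PN libraries (1.71 ± 0.28). It passed the filter through D4 alone, so the direction of its call was set by the filter. The call was lost under a pseudocount of 5 FPKM (0.56). The granin genes Scg2 (75.8, 191 and 110 FPKM against 175, 43.2 and 104 FPKM; 0.34 ± 0.52) and Chgb (42.9, 51.5 and 31.4 FPKM against 50.2, 54.6 and 34.5 FPKM; -0.14 ± 0.38) overlapped between the groups. The prohormone convertase Pcsk1 (-0.85 ± 0.32) and the CART peptide gene Cartpt (0.81 ± 0.56) were not called. Pcsk1 passed the minimum without D4 replicate 1 (-1.10) or PN replicate 2 (-1.14), and Cartpt without PN replicate 1 (1.59).

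Among the other peptide genes, the granule protein gene Vgf was at 3349, 2177 and 3559 FPKM in D4 and 158, 31.2 and 64.8 FPKM in PN (5.41 ± 0.47, adjusted p = 1.1e-07, limma). Galanin Gal was at 168, 72.9 and 163 FPKM against 1.45, 0.205 and 0.346 FPKM (6.32 ± 0.56). Thyrotropin-releasing hormone Trh (3.65), neurotensin Nts (2.84) and neuropeptide Y Npy (1.28) were higher too. Of the lower members, cholecystokinin Cck was at 16.3, 20.2 and 16.2 FPKM in D4 and 288, 589 and 238 FPKM in PN (-4.22 ± 0.31). Cort, a peptide related to somatostatin, was listed at 0 in D4 and at 23.04, 4.78 and 11.8 FPKM in PN (-3.60 ± 0.37), and gastrin-releasing peptide Grp was lower (-3.36). The processing enzyme Cpe was high in both groups, at 821, 957 and 863 FPKM in D4 and 570, 890 and 453 FPKM in PN, and was not called (0.52 ± 0.28).

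Astrocyte identity genes were split, 13 lower and 9 higher of 30 tested, with a median of -0.25. Gfap (chromosome 11, 102887336 to 102897200) was at 417, 350 and 429 FPKM in D4 and 21.9, 25.9 and 43.1 FPKM in PN (3.72 ± 0.62, adjusted p = 8.3e-05, limma). The protease Htra1 (4.14), the sulphur amino acid enzyme Cbs (3.40), clusterin Clu (2.32) and apolipoprotein Apoe (1.75) were higher with it. Fabp7, a fatty acid carrier of radial glia and young astrocytes, was the reverse, at 16.9, 28.5 and 44.7 FPKM in D4 and 625, 1428 and 1696 FPKM in PN (-5.31 ± 0.54). The glutamate transporter Slc1a3 was at 3.72, 9.82 and 5.44 FPKM against 58.6, 110 and 72.7 FPKM (-3.51 ± 0.39). Slc6a11 (-4.57) was lower as well. Aqp4 was lower (-1.34 ± 0.38) but lost its call without PN replicate 2 (-0.87). Glutamine synthetase Glul (0.46 ± 0.33) and Aldh1l1 (-0.21 ± 0.29) were not called.

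Genes of the reactive astrocyte state were higher in 17 of 26 tested, with a median of 2.004. Of the 26, 5 reached 1 FPKM in D4 only, so the higher count was partly set by the filter. After Timp1 and Lcn2 came the cytokine Clcf1 (68.1, 74.0 and 191 FPKM against 0.0603, 0.163 and 1.05 FPKM; 6.19 ± 0.45) and the small heat shock gene Hspb1 (5.36). The filament gene Vim was at 1813, 1742 and 2108 FPKM in D4 and 177, 98.3 and 847 FPKM in PN (2.93 ± 0.54), with PN replicate 3 again the highest of PN (3.82 without it). Without that library 19 members were higher. The serpin Serpina3n was not called (-0.30 ± 0.58). The lower calls were Ptx3 (-1.21) and S1pr3 (-1.12), and both were lost without PN replicate 3 (-0.71 and -0.65) or without D4 replicate 3 (-0.99 and -1.07). Ptx3 was not called without D4 replicate 1 or PN replicate 2 either, nor S1pr3 without D4 replicate 2.

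Radial glia and progenitor genes were higher in 14 of 28, lower in 4 and had a median of 1.03, and their sum was 1277 to 1749 FPKM in D4 and 328 to 576 FPKM in PN. The stem cell factor Sox2 was at 82.9, 84.5 and 108 FPKM in D4 and 16.8, 20.6 and 30.5 FPKM in PN (2.005 ± 0.29), and nestin Nes differed by 1.86. Hopx (3.67) and the inhibitors of differentiation Id1 (4.65) and Id3 (3.70) were further above PN. Id1 was at 3.74, 4.51 and 41.03 FPKM in PN, against 256, 238 and 282 FPKM in D4. Without PN replicate 3 the differences were 5.66 for Id1 and 4.76 for Id3, and 14 members of the list were higher and 5 lower. The Notch target Hes5 (0.12, 0.318 and 0 FPKM against 6.31, 7.50 and 6.95 FPKM; -2.80 ± 0.22), the Notch ligand Dll1 (-1.54), the endothelin receptor Ednrb (-2.11) and the cortical progenitor factor Lhx2 (-1.82) were the 4 lower members.

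Of 42 cell cycle genes 15 were higher, none was lower (1 at an unadjusted p under 0.05, limma) and 20 had an interval within 1 of 0. The lower count was 1 without PN replicate 1, without D4 replicate 2 or after scaling to an equal total, and 2 without PN replicate 2. The inhibitor gene Cdkn2a (chromosome 4, 89274473 to 89294619) was at 171, 154 and 156 FPKM in D4 and 0.29, 0.724 and 1.60 FPKM in PN (6.49 ± 0.30, adjusted p = 2.6e-10, limma). Cdkn2b (4.46), Ccnd2 (2.90) and the p53 target Cdkn1a (1.81) were higher as well. Cyclin D1 Ccnd1 was at 388, 447 and 501 FPKM against 14.5, 15.1 and 17.3 FPKM (4.74 ± 0.19).

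The mitotic gene Ccnb1 was at 6.11, 8.41 and 8.54 FPKM in D4 and 5.47, 9.70 and 9.53 FPKM in PN (-0.06 ± 0.20), and Plk1 was at 2.89, 3.97 and 2.91 FPKM against 2.53, 2.16 and 4.82 FPKM (0.07 ± 0.22). The intervals of both lay within 1 of 0. Mki67 was at 4.08, 6.05 and 3.09 FPKM against 1.07, 1.57 and 2.92 FPKM (0.94 ± 0.26). It was not called, but passed the minimum without PN replicate 3 (1.19) or without D4 replicate 3 (1.12).

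Extracellular matrix genes were higher in 24 of 41 tested, with a median of 1.92, and in 30 without PN replicate 3. Of the 41, 5 reached 1 FPKM in D4 only and 1 in PN only, so these counts were partly set by the filter. After osteopontin Spp1 came fibulin Fbln2 (4.86) and Igfbp7 (4.35). The collagen gene Col1a1 was at 13.4, 9.80 and 10.9 FPKM in D4 and 0.31, 0.192 and 1.49 FPKM in PN (2.97 ± 0.44). The lower members were Igfbp5 (1.31, 3.25 and 1.49 FPKM against 26.4, 32.97 and 84.8 FPKM; -3.89 ± 0.53) and the proteoglycan Dcn (-1.08), whose call was lost without PN replicate 1 (-0.86) or D4 replicate 3 (-0.93).

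Contractile, SRF and YAP target genes were higher in 21 of 27 and none was lower, with a median of 1.81, although these genes are where PN replicate 3 stood apart. The tropomyosin Tpm2 did not depend on it, at 41.7, 36.01 and 39.98 FPKM in D4 and 0.235, 0.0465 and 0.654 FPKM in PN (4.96 ± 0.29). Ctgf was at 25.6, 49.1 and 61.5 FPKM in D4 and 0.623, 0.580 and 21.97 FPKM in PN (3.49 ± 0.81, and 4.77 without that library). Acta2 (1.27, 6.27 and 2.49 FPKM in D4; 0.15 ± 0.95) and Tagln (4.77, 17.1 and 6.48 FPKM against 0.469, 0.554 and 42.9 FPKM; 0.99 ± 0.94) were not called. Without PN replicate 3 both were called higher (1.75 and 2.61), as were 25 members in all. At an unadjusted p under 0.05 (limma) 1 member was lower.

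Lysosome genes were higher in 26 of 31 tested and lower in 1, with a median of 2.19. The cathepsin Ctsb (chromosome 14, 63122462 to 63145923) was at 595, 912 and 478 FPKM in D4 and 60.4, 60.1 and 62.2 FPKM in PN (3.37 ± 0.23, adjusted p = 7.8e-09, limma). The endosomal glycoprotein Cd68 was at 218, 426 and 245 FPKM against 8.46, 1.99 and 3.88 FPKM (5.78 ± 0.51). Ctsz (5.10), Cd63 (4.85), Ctsd (3.23), Lamp2 (2.68) and Lamp1 (1.94) also stood above PN. Cd68 is often used to mark macrophages, whose defining genes Tyrobp and Fcer1g were at 0 in D4. The autophagy gene Gabarapl1 was the 1 lower member (78.1, 76.5 and 75.5 FPKM against 244, 283 and 188 FPKM; -1.60 ± 0.16).

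Of 23 Nrf2 target, iron and metallothionein genes, 12 were higher and 1 lower, with a median of 1.32. Metallothionein Mt1 was at 6427, 8757 and 9490 FPKM in D4 and 125, 344 and 302 FPKM in PN (5.10 ± 0.39, adjusted p = 2.4e-08, limma). Its close relative Mt2 differed by 4.39, and reads may be shared between the pair. Akr1b8 (5.25), the sulfiredoxin Srxn1 (4.74), haem oxygenase Hmox1 (3.91) and the ferritin light chain Ftl1 (2.77) were higher, whereas the ferritin heavy chain Fth1 overlapped between the groups (0.14 ± 0.23). Nqo1, a classic Nrf2 target, was not called (0.57 ± 0.35). The lower member was Tkt (-1.03), which lost its call after quantile normalization (-0.98) and without PN replicate 1 (-0.89).

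The stress list, which joins the integrated, endoplasmic reticulum and p53 responses, had 12 of 39 members higher and 5 lower, with a median of 0.47. Without PN replicate 2 the lower count was 9. Atf3 was at 26.3, 64.3 and 39.99 FPKM in D4 and 1.36, 0.251 and 1.49 FPKM in PN (4.43 ± 0.35). Nupr1 (4.50), Gdf15 (3.61), the cystine transporter Slc7a11 (3.38), the p53 regulator Mdm2 (2.81) and Ddit3 (2.12) were higher. Chac1 (-1.77), the apoptosis gene Bbc3 (-1.41), Aldh1l2 (-1.39) and Herpud1 (-1.22) were lower.

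Immediate-early and cAMP-responsive genes were higher in 19 of 41, lower in 6 and had a median of 0.71. Egr1 was at 87.6, 74.4 and 108 FPKM in D4 and 4.60, 3.39 and 10.2 FPKM in PN (3.79 ± 0.36). Ier3 (5.66), the MAP kinase phosphatases Dusp5 (3.70) and Dusp1 (2.57) and Junb (3.50) were higher. Npas4, a factor induced by neuronal activity, was at 0.243, 0.160 and 0.0407 FPKM against 7.39, 1.08 and 18.8 FPKM (-2.61 ± 0.51), and Nr4a3 was also lower (-3.88). Fos was at 17.9, 25.5 and 25.8 FPKM against 19.5, 1.66 and 31.5 FPKM and was not called (0.97 ± 0.67), and neither was Nr4a1 (-0.78 ± 0.48). PN replicate 2 was lowest of PN for Npas4, Fos and Nr4a1. Without it Nr4a1 was called lower (-1.48) and the list's lower count was 10, and without PN replicate 3 Fos was called higher (1.69).

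Wnt feedback genes were higher in 12 of 17 tested, with a median of 1.54. Of the 17, 5 reached 1 FPKM in D4 only, so the higher count was partly set by the filter. Axin2, a direct target of beta-catenin, was at 74.5, 41.5 and 71.8 FPKM in D4 and 6.71, 5.67 and 7.10 FPKM in PN (3.04 ± 0.41, adjusted p = 1.1e-05, limma). Notum (6.81), Sp5 (4.44), Nkd1 (3.43) and Lef1 (3.06) were higher with it. D4 replicate 2 was the lowest D4 library for all 5 genes. The member lower in D4, Nkd2 (-1.07), lost its call without D4 replicate 1 (-0.97), without D4 replicate 3 (-0.98), without PN replicate 1 (-0.93) or under a pseudocount of 5 FPKM (-0.64), and scaling to an equal total or quantile normalization gave 2 lower members.

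Hexim1, an inhibitor of transcription elongation that responds to BET bromodomain inhibition, was at 57.9, 60.8 and 59.0 FPKM in D4 and 9.79, 12.4 and 13.2 FPKM in PN (2.24 ± 0.16). The Myc family lay below PN: Mycn was at 1.88, 1.44 and 1.996 FPKM in D4 and 51.8, 48.4 and 49.96 FPKM in PN (-4.21 ± 0.21), Mycl differed by -3.62 and Myc by -1.84. Of the 13 members of this list 4 were higher and 4 lower, with a median of -0.17. The other higher members were the histone genes H1f0 (1.997), Hist1h2bc (4.08) and Hist1h1c (2.70), and the other lower member was Brd3 (-1.71). Hist1h1c was uneven in PN, at 92.5, 22.2 and 6.42 FPKM.

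Cytokine, NF-kB and interferon genes were higher in 19 of 28 tested (20 without PN replicate 3) and none was lower, also at an unadjusted p under 0.05 (limma), with a median of 1.85. The receptor gene Cd40 was at 37.7, 83.1 and 44.02 FPKM in D4 and 0, 0 and 0.225 FPKM in PN (5.62 ± 0.47). Of the 28 tested members 5, Cd40 among them, reached 1 FPKM in D4 only, so the higher count was partly set by the filter. The antiviral gene Bst2 (4.29, and 5.17 without PN replicate 3), which PN replicate 3 held at 29.1 FPKM and the other PN libraries below 4 FPKM, and the feedback inhibitor Socs3 (3.73) were higher too. The NF-kB inhibitor Nfkbia differed less (1.51 ± 0.19). The antigen presentation genes B2m (752, 1070 and 652 FPKM against 50.6, 51.4 and 113 FPKM; 3.58 ± 0.31) and H2-D1 (3.32 ± 0.30) were also higher.

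Sterol and fatty acid synthesis genes were lower in 16 of 26 tested and none was higher (1 at an unadjusted p under 0.05, limma; 1 called without D4 replicate 1), with a median of -1.41. Hmgcs1, which makes the precursor of mevalonate (chromosome 13, 119690351 to 119708260), was at 19.1, 18.2 and 19.5 FPKM in D4 and 775, 905 and 460 FPKM in PN (-5.11 ± 0.30, adjusted p = 1.8e-09, limma). Fdps (-3.49) and Nsdhl (-2.72) followed.

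The respiratory chain was the list nearest to equal levels. Of 33 nuclear-encoded members none was called at the minimum difference, 31 had an interval within 1 of 0 and the median was -0.01. By limma 4 were higher and 7 lower at an unadjusted p under 0.05, and 3 and 4 after adjustment, all by less than 1. The ATP synthase gene Atp5b was at 1016, 898 and 1130 FPKM in D4 and 995, 909 and 942 FPKM in PN (0.09, 95% interval -0.25 to 0.43). Atp5a1 (-0.08), Cox5b (-0.05), Ndufa4 (0.22), Uqcrq (-0.24) and Cox6c (-0.20) were as near.

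Glycolysis and lactate transport genes had 9 of 25 higher and 1 lower, with a median of 0.37; scaling to an equal total gave 5 lower and leaving out PN replicate 3 or D4 replicate 1 gave 4 and 3. The lactate exporter Slc16a3 was at 32.2, 25.9 and 31.3 FPKM in D4 and 0.807, 0.0807 and 0.168 FPKM in PN (4.54 ± 0.27). Hk2 (2.66), the glucose transporter Slc2a1 (2.55), Eno1 (1.94) and Pkm (1.43) were higher. Slc16a7, a high-affinity monocarboxylate transporter of neurons, was lower (-2.08 ± 0.17). Hk1 missed the minimum (-0.89), which it passed under scaling to an equal total (-1.05), without PN replicate 3 (-1.05) and without D4 replicate 1 (-1.07). Aldoa (0.37 ± 0.20) and Ldha (-0.03 ± 0.21) had intervals within 1 of 0.

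**Figure D3:**
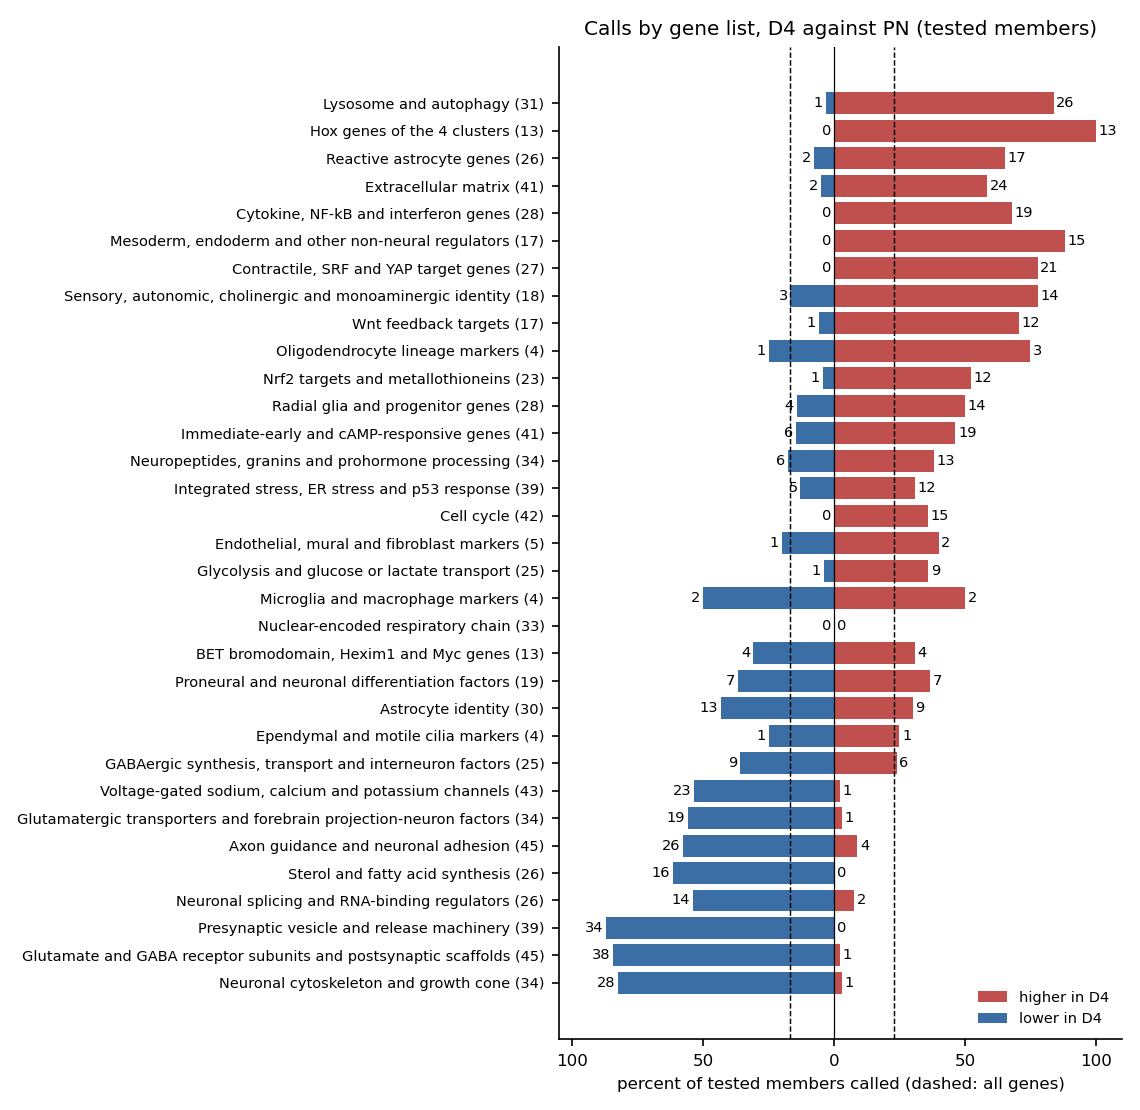
Percent of the tested members of each of the 33 lists called higher (red, to the right) or lower (blue, to the left) in D4 than in PN, with the counts at the bar ends and the number tested in brackets; dashed lines mark the 22.9% and 16.8% of all genes. Lists are ordered by median difference, from cytoskeleton (28 of 34 lower) to lysosome (26 of 31 higher), and the respiratory chain has no call.

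Positional and non-forebrain identity genes were low in level but largely seen in D4 alone. Of the 39 Hox genes, which set position along the body axis and are not used in the forebrain, only 13 passed the filter, each through D4 libraries, so that their calls were set by the filter. Over all 39, every D4 value lay above every PN value in 32 genes, against 25.2% of all 24346 symbols, and 26 were listed at 0 in all PN libraries. The highest PN value of any Hox gene was 0.387 FPKM. Hoxb4 was at 10.6, 8.14 and 9.10 FPKM in D4 and 0 in PN, Hoxd8 at 8.99, 6.52 and 8.72 FPKM against 0.0267, 0 and 0 FPKM, and Hoxb9 at 4.70, 3.58 and 3.22 FPKM against 0.156, 0 and 0 FPKM. Hoxa9 reached 0.247, 0.429 and 0.643 FPKM in D4 and was not tested.

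Of 32 regulators of mesoderm, endoderm and other non-neural tissues, D4 lay above PN without overlap in 27, against 25.2% of all symbols. The filter kept 17 of the 32, of which 13 reached 1 FPKM in D4 only, so their calls were largely set by the filter. Twist1, a mesenchymal factor, was at 38.7, 34.2 and 45.5 FPKM in D4 and 0.105, 0.315 and 0.522 FPKM in PN (4.95 ± 0.30). Gata4 was at 5.34, 5.85 and 6.11 FPKM against 0.0152, 0 and 0.0327 FPKM, and Gata6 was listed at 0 in PN and at 3.79, 1.97 and 3.18 FPKM in D4. The highest PN value in this list was 1.93 FPKM.

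Among 40 genes of sensory, autonomic, cholinergic and monoaminergic identity, D4 lay above PN without overlap in 23 and below it in 8, against 25.2% and 19.9% of all symbols. Of the 18 tested, 11 reached 1 FPKM in D4 only, so the direction of their calls was set by the filter. Gata2 was at 8.89, 5.97 and 8.27 FPKM in D4 and 0, 0 and 0.206 FPKM in PN, and the neurotrophin receptor Ngfr was at 15.9, 16.4 and 10.4 FPKM against 1.22, 1.45 and 0.928 FPKM (2.77 ± 0.51). The spinal and sensory factors Lmx1b (2.33) and Isl2 (2.26) were called higher, but both passed the filter through D4 alone. Under a pseudocount of 5 FPKM both calls were lost (0.86 and 0.90). Isl1 stayed below 1 FPKM in both groups. The neurotrophin receptors Ntrk2 (9.68, 8.91 and 10.2 FPKM against 54.6, 51.3 and 50.4 FPKM; -2.33 ± 0.26) and Ntrk3 (-2.32), and the neurturin receptor Gfra2 (-1.56), were the 3 lower members.

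Few markers of other brain cells passed the filter. Of 14 oligodendrocyte genes 4 were tested, and Olig2 (9.92, 21.2 and 37.04 FPKM against 3.39, 6.67 and 10.4 FPKM; 1.53 ± 0.42) and Cnp (1.64 ± 0.21) were higher. Mbp was at 1.19, 0.942 and 0.728 FPKM against 4.43, 2.97 and 2.06 FPKM. Its call (-1.06) was lost without PN replicate 1 (-0.84) or D4 replicate 3 (-0.97). Pdgfra was called higher (1.30) although PN replicate 3 was at 4.19 FPKM within the D4 range of 2.37 to 4.25 FPKM; the call was lost without PN replicate 1 (0.92), PN replicate 2 (0.91), D4 replicate 1 (1.17) or D4 replicate 2 (1.22), and, at the same 1.30, in the fit of the 6 libraries alone, with or without the replicate block. Of the vascular markers, Flt1 was higher (2.52 ± 0.31), and the endothelial genes Cldn5 and Pecam1 stayed below 0.5 FPKM in all 6 libraries. The ciliary factor Foxj1 was lower (1.11, 2.65 and 1.43 FPKM against 3.55, 4.99 and 15.4 FPKM; -1.53), and its call was lost without PN replicate 3 (-0.98).

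Set beside the other days, the day 4 levels kept different places. Dcx stayed below 1 FPKM in every D0, D4, D8 and D16 library. Snap25 was at 0 to 0.516 FPKM at D0, 52.3 to 75.2 FPKM at D4 and 135 to 213 FPKM at D16. Ctsb lay above every PN value in all induced and astrocyte libraries, while Gfap at D4 was still at 350 to 429 FPKM.

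**Figure D4:**
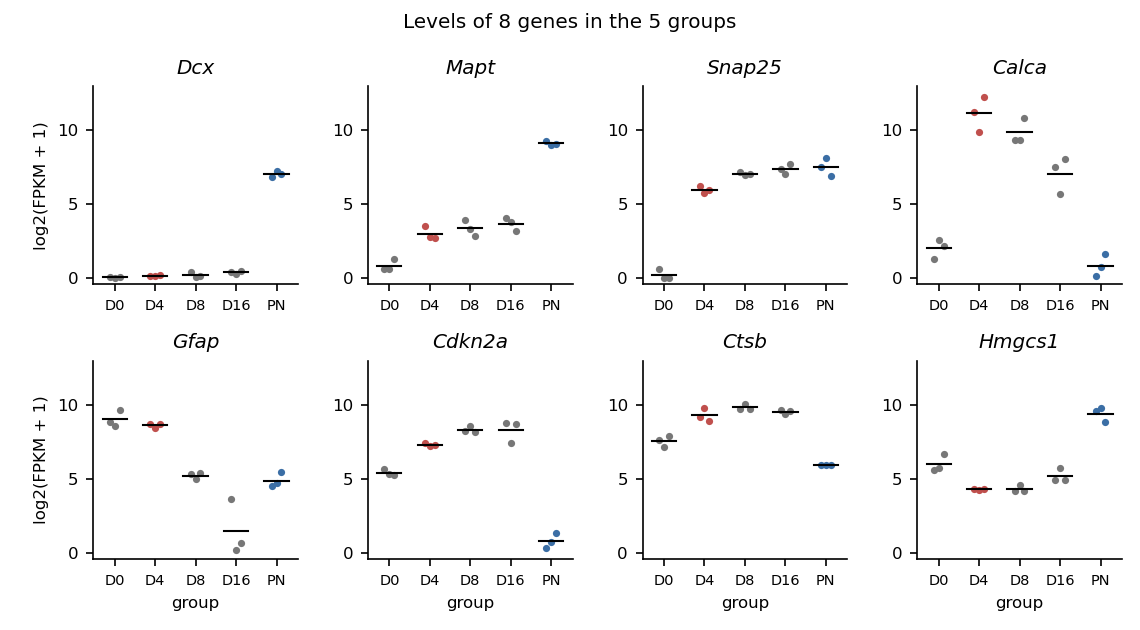
Level of 8 genes in all 15 libraries as log2(FPKM + 1), by group (D0, D4, D8, D16, PN), 1 point per library with a bar at the group mean; D4 is red and PN blue. Dcx and Mapt stand apart in PN, Snap25 at D4 lies just under its PN values, and Calca peaks at D4.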

How the data were processed

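RNA was sequenced from 15 mouse brain cell libraries in 5 groups of 3, and D4 was compared with PN. The deposited data are FPKM values, computed by the authors, for 24346 gene symbols. The genome was mm10 (GRCm38) per the submitters' processing notes. Aligner, quantifier, annotation and use of strand: not given in the sources used here. Read counts were not used here.

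Genes at 1 FPKM or more in at least 3 of the 6 libraries were transformed to log2(FPKM + 1). limma 3.58.1 in R 4.3.3 fitted 1 mean per group over all 15 libraries (10 residual degrees of freedom, variance trend). P-values from limma's moderated test were adjusted by Benjamini-Hochberg over 13170 genes. The fit was checked on simulated data. Intervals are 95%, errors are standard errors from the fit, and the median standard error was 0.199.

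The genes named were the 12 called with the largest difference in each direction (no overlap, at least 5 FPKM, no ribosomal, small-RNA or unnamed transcripts), up to 4 called members of each list each way, the first 2 symbols of each list, and the 12 most abundant list members with an interval within 1 of 0. Others, such as Stmn1, Nefl, Gria3, Tbr1, Trh, Vim and Ctsd, and all granin genes, were chosen after their values were seen. Some genes these rules select are not reported here. The members and lists were chosen with earlier results of these data known. Positions came from RefSeq GRCm38.p6, with 12538 genes matched by symbol, 596 by synonym and 36 not at all. Promoter windows came from RefSeq of the same build. Alternatives were pseudocounts of 0.1 and 5, other filters, 3 scalings, a 6-library fit, a replicate block, leaving out each library, and no minimum on the difference. Tables and figures used Python 3.11.15, numpy 2.4.6, pandas 2.3.3 and matplotlib 3.10.9.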

Additional observations from a re-analysis of the deposited data

How the results depend on the processing

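The counts of genes past the thresholds moved by more than 1.5 times in few settings. With a pseudocount of 5 FPKM, 1633 genes were higher, 1427 lower and 8113 within 1 of 0. Without a filter 10016 were within 1 of 0. With no minimum on the difference 4781 were higher and 3922 lower. Restricted to genes at 1 FPKM or more in all 6 libraries, a setting chosen after seeing the data, 1750 were higher and 1661 lower. All other settings stayed within 1.5 times: a pseudocount of 0.1 (3409 higher, 2468 lower), a filter at 5 FPKM (2139, 1795), equal total (2682, 2580), quantile normalization (2663, 2441), median ratio scaling (2928, 2315) and a fit of the 6 libraries (3008, 2214). Leaving out each library gave 2916 to 3162 higher, 2149 to 2315 lower and 4673 to 4860 within 1 of 0. Over the settings of single genes, 3923 values stayed on their side of the threshold, 69 fell back and 24 passed it, and none changed direction past the threshold. Of those that fell back, 34 did so under the pseudocount of 5 FPKM, among them Arc (0.94), Gata6 (0.67) and Hoxb9 (0.80). Low genes are limited by depth, which was lower in all D4 libraries than in PN.

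The values do not settle whether replicate numbers pair the libraries. Same-number D4 and PN libraries correlated at 0.00345 to 0.214 in their deviations, others at -0.212 to 0.164. D4 replicates 1 and 3 correlated best with the PN library of the same number, but D4 replicate 2 with PN replicate 3. A replicate block gave 3016 higher and 2221 lower.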

Other observations

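The gene families described here lie outside the lists and were chosen after their values were seen. Of 52 clustered protocadherins tested, adhesion genes that give neurons individual surface identities, 43 were lower in D4 and 1 was higher, with a median of -1.66, against 16.8% and 22.9% of all genes. Pcdhgc4 was at 0.336 ± 0.0637 FPKM (SD, n = 3) in D4 and 14.98 ± 6.21 FPKM in PN (-3.51 ± 0.28 SE), and Pcdhac2 differed by -3.37. Pcdhgc5 was the 1 higher member (12.02 ± 4.69 against 1.77 ± 0.860 FPKM; 2.20 ± 0.39), and Pcdhgc3, at 94.0 ± 17.9 against 58.5 ± 13.2 FPKM, was not called. Members of a cluster share constant exons, so reads may be divided among them.

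Of 68 histone genes named Hist1 to Hist4, 38 were tested, 32 were higher and 1, Hist3h2ba, was lower (38.1 ± 6.22 against 270 ± 56.9 FPKM). Of the tested genes 20 reached 1 FPKM in D4 only, so the count was partly set by the filter. Hist1h4i was at 281 ± 43.9 FPKM in D4 and 8.70 ± 5.76 FPKM in PN (5.04 ± 0.51). Near-identical copies make the split among these genes uncertain. The chromatin architecture genes Hmga2 (50.1 ± 15.8 against 0.0782 ± 0.125 FPKM) and Hmga1 (299 ± 76.0 against 36.4 ± 6.30 FPKM) were higher. Of 81 cytosolic ribosomal protein genes 16 were higher and none lower, with a median of 0.64. Of 326 zinc finger genes named Zfp 19 were higher and 55 lower, with a median of -0.34. The higher share of the ribosomal genes was below the 22.9% of all genes, and the lower share of the Zfp genes was close to the 16.8% of all genes.

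Long genes were more often lower in D4. Of 1979 genes above 100 kb, 29.2% were lower and 19.1% higher, against 15.5% lower and 24.9% higher of 3276 genes up to 10 kb. At mean levels of 10 to 100 FPKM, 34.8% of 802 genes above 100 kb and 15.6% of 1494 genes up to 10 kb were lower. Many neuronal adhesion and channel genes are long, and the part of length itself was not tested.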
